A study of Homo sapiens with 12 samples.

Results

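Transcript levels were compared between Caco-2 cells given siRNA against MTF1 and Caco-2 cells given a non-targeting control siRNA, with both held at 3 µM (low) zinc. Caco-2 is a long-used cell line derived from an adenocarcinoma of the human colon, with the habit of an intestinal epithelium. The comparison takes in 6 of the 12 arrays of the series, 3 per siRNA, chosen by their sample titles, and runs across the 14285 genes and probes detected in at least 1 group. All cells had been transfected with lipofectamine RNAiMAX, the controls with Non-targeting siRNA #1 and the other group with an MTF1 siRNA of the same ON-TARGETplus series. The remaining 6 arrays hold the same siRNAs at 150 µM (high) zinc. The sources used here do not state how long the cells were exposed to zinc or siRNA. The series title concerns zinc sensing by MTF1, whereas the design text names a knockdown of ZNF658; all sample labels name MTF1, and these were followed. Nothing in the labels says that the 3 samples of a group came from separate cultures, so p-values measure only the spread between these samples, which may be technical.

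The zinc-finger protein MTF1 binds metal response elements in DNA when zinc is available and switches on genes that bind or export the metal. Its best known targets are the metallothioneins, small cysteine-rich proteins that hold zinc and copper, and SLC30A1 (ZnT1), which exports zinc from the cell. In the intestinal epithelium these genes are known to buffer zinc taken up from the diet. The comparison asks what MTF1 siRNA does at the lower of the zinc concentrations.

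The promoters of 3 metallothioneins are shown because MTF1 is known to act there and because this family held the largest differences between the siRNAs. Each is the RefSeq window on GRCh38.p14 from 250 bases before to 50 after the gene's start, on the + strand, at chr16:56608334-56608633 for MT2A, chr16:56682220-56682519 for MT1X and chr16:56669564-56669863 for MT1H. Capitals mark matches to the core of the metal response element, searched as TGCACNC or TGCGCNC on both strands (GNGTGCA or GNGCGCA when read on this one).
MT2A: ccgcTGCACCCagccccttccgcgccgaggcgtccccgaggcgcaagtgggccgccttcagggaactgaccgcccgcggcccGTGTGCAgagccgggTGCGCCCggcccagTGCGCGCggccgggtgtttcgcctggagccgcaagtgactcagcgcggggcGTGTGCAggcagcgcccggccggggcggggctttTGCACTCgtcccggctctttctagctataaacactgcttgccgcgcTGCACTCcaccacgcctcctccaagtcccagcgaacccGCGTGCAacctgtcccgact
MT1X: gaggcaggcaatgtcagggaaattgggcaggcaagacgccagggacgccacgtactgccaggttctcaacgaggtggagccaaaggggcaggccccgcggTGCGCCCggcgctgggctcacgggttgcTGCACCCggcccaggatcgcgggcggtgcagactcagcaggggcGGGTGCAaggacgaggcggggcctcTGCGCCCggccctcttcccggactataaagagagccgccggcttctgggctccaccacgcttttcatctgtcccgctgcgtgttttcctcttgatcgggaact
MT1H: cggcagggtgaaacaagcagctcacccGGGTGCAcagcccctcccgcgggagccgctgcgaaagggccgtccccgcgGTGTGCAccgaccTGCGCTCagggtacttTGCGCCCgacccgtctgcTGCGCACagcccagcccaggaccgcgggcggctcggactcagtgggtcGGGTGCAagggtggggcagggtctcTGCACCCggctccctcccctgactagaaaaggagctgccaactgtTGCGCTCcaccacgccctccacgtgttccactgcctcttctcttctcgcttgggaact
The MT2A and MT1H windows held 8 matches each and that of MT1X held 4, with no overlaps among them. Of all 35116 promoters of this length in the table, 29.6% held at least 1 match and 2.3% held 3 or more. A promoter was found for 4 of the 8 measured metallothioneins, and all 4 held the core, MT1B with 3 matches. SLC30A1 held 2 matches, SLC30A2 held 3 and MTF1 none. A match to these letters is a description and not evidence of binding.

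The targeted transcript was lower in mean after MTF1 siRNA, but its difference did not pass the threshold. MTF1 read 6.56, 6.49 and 6.77 on the control arrays and 6.28, 5.69 and 5.72 on the MTF1 siRNA arrays, in normalized log2 intensity. All 3 MTF1 siRNA arrays lay below all 3 control arrays, and replicate 1 lay nearest to them. The log2 difference was -0.71 ± 0.22 (SE), a 1.64-fold lower level, with an adjusted p of 0.201 by limma and an unadjusted p of 0.00725. The size was smaller without background correction, at -0.27, and with the authors' values, at -0.30. MTF1 passed in none of the other settings tried, where the adjusted p ran from 0.116 to 0.431. ZNF658, the gene named in the design text, was not above background on any low-zinc array with either of its probes.

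Across all genes and probes, 17 of 14285 passed an adjusted p of 0.05 in limma's test (0.119%), 5 higher with MTF1 siRNA (0.035%) and 12 lower (0.084%). At an unadjusted p under 0.05 there were 1081 higher and 1014 lower, together 14.7%. The median log2 difference was 0.0097, and the quartiles of all features were -0.14 and 0.14. These 17 calls rest on narrow margins. Leaving out control replicate 1 or MTF1 siRNA replicate 1 left 0 calls, with 1955 and 1524 features at an unadjusted p under 0.05. Leaving out control replicates 2 or 3 left 5 and 3, and leaving out MTF1 siRNA replicates 2 or 3 gave 19 and 8. The fit takes its spread from all 12 arrays, and a fit of the 6 low-zinc arrays alone gave 0 calls. Without background correction there were 159 calls, and with the authors' log2 values 152.

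The 6 arrays were of like depth, with 18191 to 18961 of 47323 probes detected on each. Of the epithelial markers, 7 of 9 were detected on all 6, whereas KRT20 and CDHR5 were not. The immune marker CD3E and the endothelial marker VWF were detected on none, whereas the endothelial marker CDH5, 5 of 5 mesenchymal markers and 2 of 4 immune ones (CD14 and CD68) were detected on all. Summed on a linear scale, the mesenchymal markers ran from 2382 to 2567 in controls and from 2257 to 2359 after MTF1 siRNA. The immune markers summed to 454 to 504 and 450 to 509. The epithelial sums were 38601 to 38911 and 38176 to 43982. The part that these levels play in any result was not tested.

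The metallothioneins carried the largest differences of all, in 1 direction, without any member passing the threshold. By size of the log2 difference MT1G, MT1X and MT1H ranked 1, 2 and 3 among the 14285 features. Of 12 metallothionein genes listed, 8 entered the tests, each detected on all 6 high-zinc arrays, and 6 of these were also detected on all 3 control arrays at low zinc. Those 6 all had a negative difference at low zinc, with a median of -1.29 against 0.0097 over all features (-0.94 over all 8). None was called by limma's test, although 6 of the 6 had an unadjusted p under 0.05, against 14.7% of all features. In 3 of them (MT1F, MT1G and MT1H) every MTF1 siRNA array lay below every control array, a pattern found in 8.83% of all features. MT1M and MT1B, at or near background at low zinc, are not in these counts. The 6 were thus kept by detection in the controls, the group where they are higher. Over all 8, 7 had an unadjusted p under 0.05 and 4 had every MTF1 siRNA array below every control array. MT1L, MT3 and MT4 had probes that did not enter the tests, and MT1A was not analysed here. The family's transcripts are near-identical in sequence, and how far a probe reads its relatives was not tested.

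MT2A, the isoform that carries much of the metallothionein transcript in most human cells, read 10.12, 9.62 and 10.24 in controls and 8.66, 9.88 and 9.08 after MTF1 siRNA. The groups overlapped, because MTF1 siRNA replicate 2 lay above control replicate 2. Its log2 difference was -0.78 ± 0.26, with an adjusted p of 0.228. MT1X, another widely expressed member, read 8.85, 8.28 and 9.23 in controls against 6.06, 8.43 and 7.23. Here too replicate 2 of MTF1 siRNA reached the control range while replicate 1 lay far below it. The difference was -1.54 ± 0.44 (adjusted p = 0.175).

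MT1G read 8.30, 7.97 and 8.58 in controls and 5.90, 7.75 and 5.80 after MTF1 siRNA. The groups did not overlap, although replicate 2 of MTF1 siRNA lay just under the lowest control. The difference was -1.80 ± 0.40 (adjusted p = 0.109), a 3.47-fold lower mean. MT1H read 7.29, 6.68 and 7.57 in controls and 5.10, 6.29 and 5.68 after MTF1 siRNA, again with replicate 2 the highest of its group. Its difference was -1.49 ± 0.28 and its adjusted p of 0.0748 was the smallest of the family. A second MT1H probe, not above background on these arrays, read 0.36 higher.

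MT1F read 9.84, 9.41 and 9.87 in controls and 8.13, 9.14 and 8.60 after MTF1 siRNA. The groups were apart, and the difference was -1.08 ± 0.21 (adjusted p = 0.0823). MT1E read 8.05, 7.50 and 7.74 in controls against 6.69, 7.69 and 6.53, and the groups overlapped through replicate 2. Its difference was -0.79 ± 0.25 (adjusted p = 0.207). MT1M and MT1B were hardly above background at low zinc. MT1M was detected on 1 of 3 control arrays and 0 of 3 MTF1 siRNA arrays, at means of 5.09 and 4.55, and MT1B on none, at 4.85 and 4.72.

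**Figure D1:**
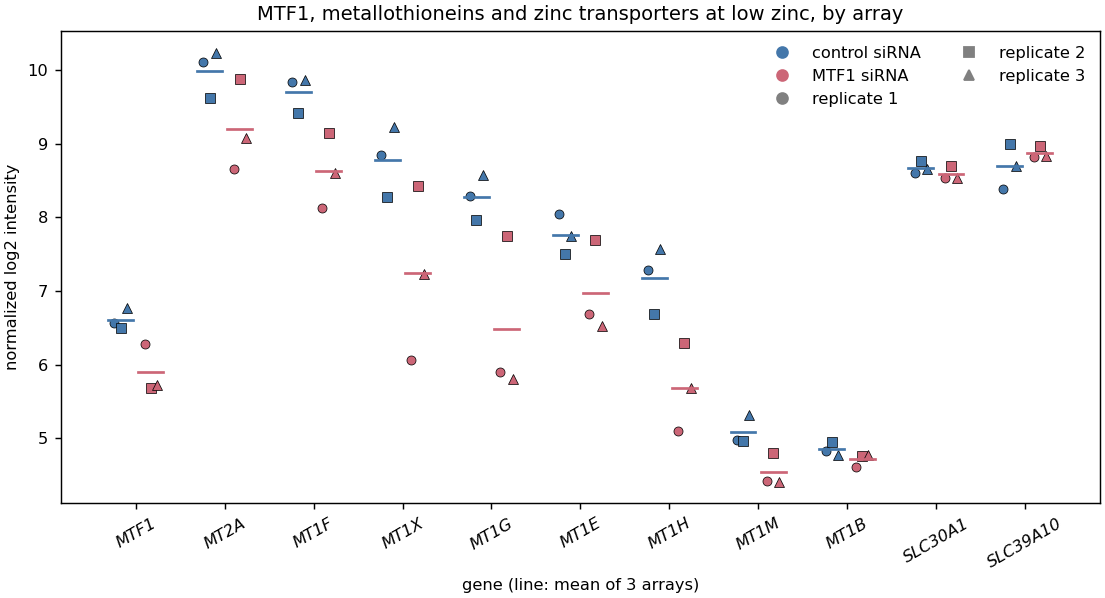
Normalized log2 intensity (vertical axis) of MTF1, the 8 measured metallothioneins, SLC30A1 and SLC39A10 on the 6 low-zinc arrays. Each point is 1 array (shape gives the replicate number), and lines are means of 3 arrays. The square of the MTF1 siRNA group, replicate 2, lies at or near the control points of the metallothioneins, whereas the transporters show no gap between the groups.

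The MTF1 siRNA arrays differed among themselves in their metallothionein levels. In each of the 6 metallothioneins detected on all control arrays, replicate 2 was the highest of the MTF1 siRNA arrays and replicate 2 was also the lowest of the control arrays. The mean level over these 6 genes was 8.74, 8.24 and 8.87 in controls and 6.76, 8.20 and 7.16 after MTF1 siRNA. MTF1 itself read 5.69 on MTF1 siRNA replicate 2, the array of its group with the highest metallothioneins. That was close to the 5.72 of replicate 3 and below the 6.28 of replicate 1. Without MTF1 siRNA replicate 2, 5 metallothioneins passed the threshold as lower. Among them, MT1G stood at -2.43 ± 0.18 (adjusted p = 0.000853) and MT1X at -2.14 ± 0.32 (adjusted p = 0.0398), with MT1H, MT1F and MT1E the others. Without any other single array none passed. Without MTF1 siRNA replicate 1 the differences were smaller, at -0.95 for MT1X, -0.51 for MT2A and -1.50 for MT1G. Without background correction MT1G and MT1X stood at -0.98 each, MT1F at -0.88, MT1H at -0.63 and MT1E at -0.44. With all arrays in that setting, 4 metallothioneins passed limma's test as lower. These were MT1F (adjusted p = 0.00527), MT1G (adjusted p = 0.0121), MT1H (adjusted p = 0.0192) and MT1X (adjusted p = 0.0361). MT1E did not pass (adjusted p = 0.0978).

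No zinc transporter was called. SLC30A1 read 8.60, 8.76 and 8.65 in controls and 8.54, 8.70 and 8.53 after MTF1 siRNA. The groups overlapped, and the difference of -0.08 ± 0.10 (adjusted p = 0.736) was 0.0042 when arrays were centred on their medians; its second probe differed by -0.10. SLC30A2, a vesicular zinc exporter, read 4.55, 5.34 and 4.81 against 4.36, 5.06 and 4.45, near background in both groups. The difference of -0.28 ± 0.21 ran from -0.50 to -0.05 when 1 low-zinc array was left out. A second SLC30A2 probe, not above background on these arrays, gave 0.19 ± 0.20. SLC39A10, a zinc importer, read 8.38, 9.00 and 8.70 against 8.82, 8.96 and 8.83, a difference of 0.18 ± 0.17 (adjusted p = 0.670) that was 0.02 without control replicate 1 and 0.33 without control replicate 2. Of 7 measured SLC30 exporters none was called and 0 had an unadjusted p under 0.05. Of 10 measured SLC39 importers none was called, 1 had an unadjusted p under 0.05 (SLC39A1, at 0.29 ± 0.11), and 8 had a positive difference. Among 13 measured genes reported elsewhere as MTF1 targets none was called and 4 had an unadjusted p under 0.05. Over all features that share was 14.7%. The stress-responsive NDRG1 stood at -0.31 ± 0.10 and the coagulation factor F7 at -0.50 ± 0.21, and the mitochondrial thioredoxin reductase TXNRD2 at 0.31 ± 0.10.

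The 17 calls were 13 named genes and 4 probes that the platform annotation does not name. Their sizes ran from 0.55 to 1.16 on the log2 scale. None is a metal-handling gene on the lists, and they spread over signalling, lipid phosphatase, ubiquitin and cell-cycle functions.

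SMAD5, a transducer of bone morphogenetic protein signals, fell. It read 10.78, 10.85 and 10.81 in controls and 10.02, 10.14 and 10.18 after MTF1 siRNA. The spread within each group was small against the gap. The log2 difference was -0.70 ± 0.09, 1.62-fold lower (adjusted p = 0.0168). FOXN3, a forkhead repressor of transcription, read 9.59, 9.75 and 9.80 against 9.11, 9.09 and 9.08. The MTF1 siRNA arrays were nearly equal and all below the controls, at -0.62 ± 0.09 (adjusted p = 0.0365). Within the measured TGF-beta and BMP response list, 0 of 12 members were called, and 7 values were positive and 5 negative. An unadjusted p under 0.05 was found for 5 members, against 14.7% of all features. The BMP target ID1 was at -0.74 ± 0.18 (adjusted p = 0.126), and the inhibitor SMAD6 and the receptor TGFBR2 were at 0.51 ± 0.16 and 0.47 ± 0.10.

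ITM2C, a membrane protein that binds the amyloid precursor, fell from 9.93, 9.66 and 10.00 to 8.98, 8.90 and 8.95. All 3 MTF1 siRNA arrays lay together, well under the controls. The difference was -0.92 ± 0.12, 1.89-fold lower (adjusted p = 0.0168), and a second ITM2C probe gave -1.07 ± 0.11 (adjusted p = 0.00821 in a fit of every probe). OCRL, the inositol phosphatase mutated in Lowe syndrome, fell from 8.63, 8.72 and 8.76 to 7.99, 8.00 and 8.05. The difference was -0.69 ± 0.09 (adjusted p = 0.0168), and its second probe gave -0.62 ± 0.09 (adjusted p = 0.0245 in that fit). Both genes thus rest on a pair of probes.

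UBE2Q1, a ubiquitin-conjugating enzyme, fell from 8.56, 8.59 and 8.72 to 7.93, 7.82 and 7.90. The difference was -0.74 ± 0.11 (adjusted p = 0.0365). DCLK1, a microtubule-associated kinase known as a marker of intestinal tuft cells, read 6.07, 5.91 and 6.26 in controls and 5.08, 5.31 and 4.82 after MTF1 siRNA. It was detected on all control arrays and on 1 of 3 MTF1 siRNA arrays. The difference of -1.01 ± 0.16 (adjusted p = 0.0418) therefore has a side near background. It was -0.31 without background correction and -0.35 with the authors' values. A second DCLK1 probe, detected on 1 of 3 control arrays and 0 of 3 MTF1 siRNA arrays, differed by -0.03. SSPOP, a pseudogene of SCO-spondin, read 5.62, 5.59 and 5.55 against 4.80, 4.65 and 4.97. None of its MTF1 siRNA arrays was above background, so the level was at least 1.30-fold lower (adjusted p = 0.0162). SSPOP entered the tests only through the low-zinc controls, where it was high, so this adjusted p is not separate from the filter on detection. Without background correction it missed the threshold, at -0.24 (adjusted p = 0.0816).

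MCM2 and CCNB2, both cell-cycle genes, fell as well. MCM2, a subunit of the helicase that unwinds DNA at replication, read 9.45, 9.42 and 9.46 against 8.97, 8.75 and 8.85. The controls were within a few hundredths of each other, and the difference was -0.59 ± 0.08 (adjusted p = 0.0252). CCNB2, a mitotic cyclin, read 11.04, 11.13 and 10.99 against 10.52, 10.53 and 10.45. The gap of -0.55 ± 0.09 was the smallest of the calls (adjusted p = 0.0418).

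The genes that rose were fewer. STMN3, a stathmin that destabilizes microtubules, read 10.90, 10.71 and 10.88 in controls and 11.40, 11.46 and 11.44 after MTF1 siRNA. The difference was 0.60 ± 0.09, 1.51-fold higher (adjusted p = 0.0418). KCTD20, a protein reported to act on Akt signalling, rose from 7.91, 7.99 and 7.83 to 8.57, 8.36 and 8.64, at 0.61 ± 0.10 (adjusted p = 0.0489). EIF3CL, a near-identical copy of the translation initiation factor EIF3C, read 7.08, 7.03 and 7.09 against 7.69, 7.85 and 7.60. Its difference was 0.64 ± 0.10 (adjusted p = 0.0489), whereas the probe of EIF3C gave -0.18 ± 0.15; which copy a probe reads is uncertain, and without background correction the EIF3CL difference was 0.38. KIR2DL5B, a receptor known from natural killer cells and one of a family of close copies, read 4.49, 4.69 and 4.74 against 5.63, 5.39 and 5.64. No control array was above background, so it was at least 1.26-fold higher (adjusted p = 0.0252). Without background correction the log2 difference was 0.31. Its second probe was not above background on any low-zinc array. KIR2DL5B entered the tests only through the MTF1 siRNA arrays at low zinc, where it was high. Its adjusted p is thus not separate from the filter on detection. The blood-cell marker PTPRC was above background on 1 control array and on 0 MTF1 siRNA arrays.

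Among the unnamed probes, ILMN_1881526 rose by 1.16 ± 0.14 on the log2 scale (adjusted p = 0.0162), from 5.19, 5.55 and 5.23 to 6.52, 6.25 and 6.67. It was detected on 2 of 3 control arrays, so this difference has a side near background. ILMN_1743499 had the smallest adjusted p of all, 0.0147, and read 8.78, 8.98 and 8.87 in controls against 7.92, 8.13 and 7.90. ILMN_1732644 was not above background on the MTF1 siRNA arrays and was at least 1.66-fold lower.

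**Figure D2:**
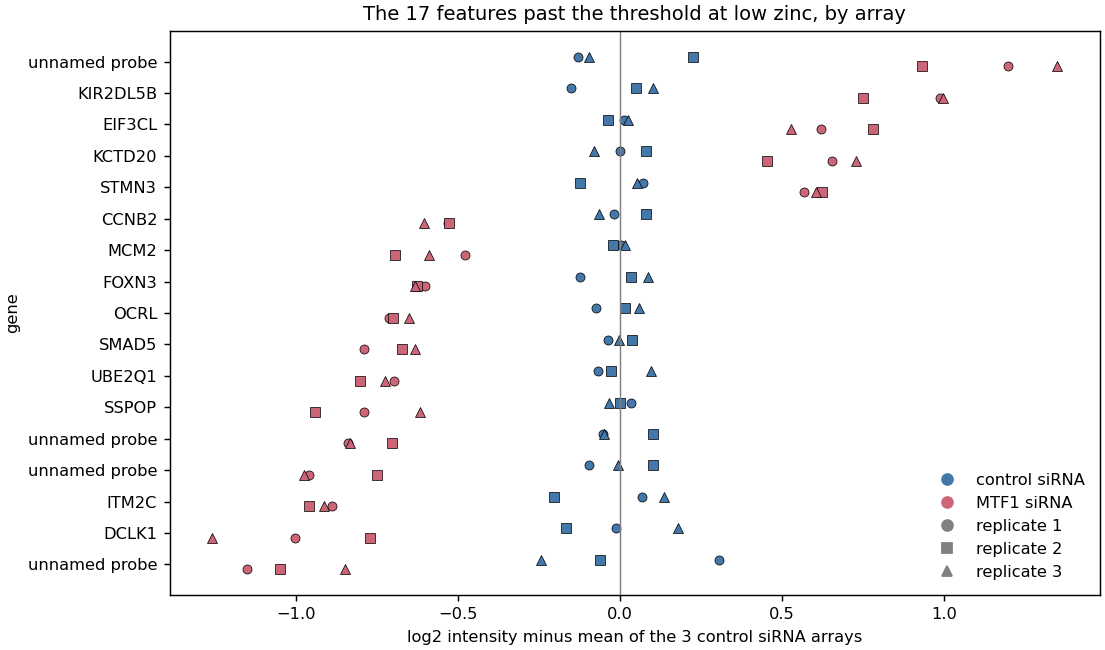
Log2 intensity minus the mean of the 3 control arrays (horizontal axis) for the 17 features past the threshold at low zinc. Each point is 1 array, with shape giving the replicate number. The control points lie around 0 and the MTF1 siRNA points lie apart from them on 1 side in each row, because the rule for a call selects such features.

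Just outside the threshold came IFIT1, CIDEB and C9orf40. IFIT1, an interferon-induced antiviral protein that binds foreign RNA, read 5.76, 6.04 and 5.90 in controls and 7.08, 6.73 and 6.47 after MTF1 siRNA. The difference was 0.86 ± 0.14 (adjusted p = 0.0567), and at high zinc it was 0.64 ± 0.14 (adjusted p = 0.0483). CIDEB, a lipid droplet protein, stood at 0.68 ± 0.12, and C9orf40 at 0.73 ± 0.12, both with an adjusted p of 0.0601. Of the 19 measured interferon response genes none was called and 2 had an unadjusted p under 0.05, against 14.7% of all features. IFIT2 stood at 0.44 ± 0.16, whereas ISG15 stood at -0.16 ± 0.21 and IFITM3 at -0.32 ± 0.16.

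The metal response core was also counted in the promoters of the called genes, without a test. Of the 9 named genes that fell, 7 had a promoter in the table and 5 of those held a match, among them CCNB2 with 3 and FOXN3 with 2. Of the 4 that rose, 2 had a promoter and 1, KCTD20 with 2 matches, held the core. Over the 8535 named genes tested that have a promoter, 38.9% held it.

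Most DNA replication genes had values of the opposite sign to MCM2. Of 27 measured, 21 had a positive difference and 14 had every MTF1 siRNA array above every control array, a pattern found in 11.6% of all features. The list's median was 0.18 against 0.0097 over all features. Of its members, 11 had an unadjusted p under 0.05, against 14.7% of all features. With other scalings (no background correction, median centring or the authors' values) 21 to 23 members were positive. The only call was MCM2, which fell. Its partners in the 6-subunit helicase, MCM3 to MCM7, were all positive, from 0.18 to 0.24, without a call; a second MCM4 probe gave -0.14 ± 0.12. The largest positive values were those of the ribonucleotide reductase subunit RRM2 (0.33 ± 0.10) and the polymerase subunit POLE2 (0.33 ± 0.10), with adjusted p-values of 0.174 and 0.211. MCM10, a replication initiation factor, was at -0.25 ± 0.10. At high zinc the list's median was 0.0083 and MCM2 was at 0.08 ± 0.08. The difference of the MCM2 effect between the zinc levels was -0.67 ± 0.12 (adjusted p = 0.106).

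**Figure D3:**
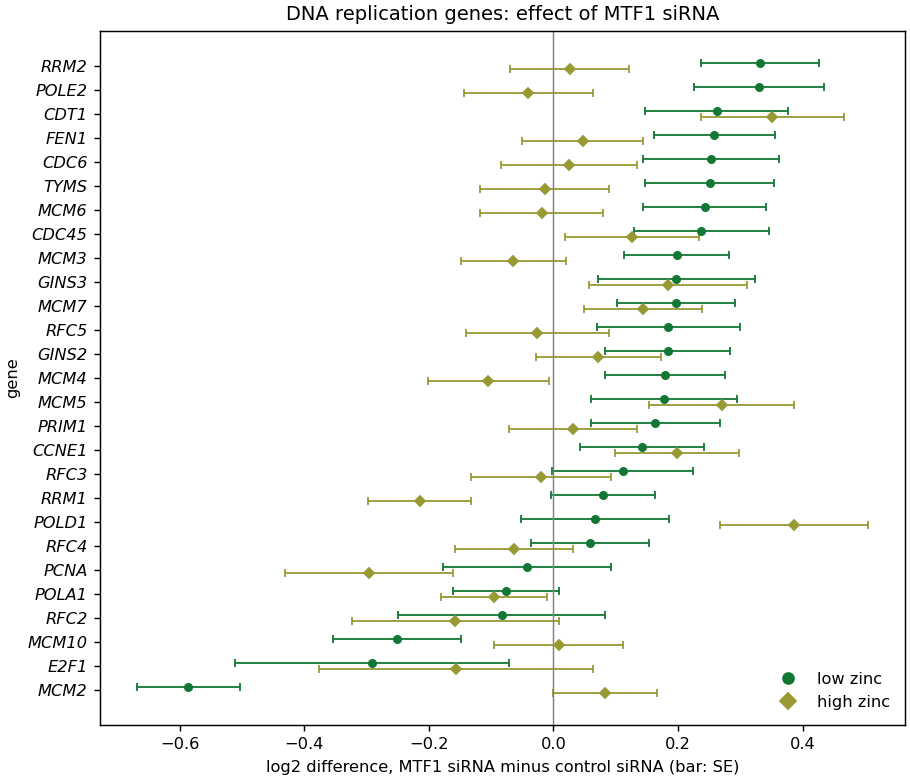
Log2 difference between MTF1 and control siRNA (horizontal axis, bars SE, 3 arrays a group) for the 27 measured DNA replication genes at low zinc (circles) and high zinc (diamonds). At low zinc 21 of 27 lie above 0 and MCM2 lies lowest, at -0.59; at high zinc the genes lie around 0, with MCM2 at 0.08.

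Mitosis genes had a median of 0.07, with 29 measured, 20 positive and 7 at an unadjusted p under 0.05, against 14.7% of all features. CCNB2 was the only call. Its relative CCNB1 was at 0.02 ± 0.12. The spindle checkpoint gene MAD2L1 was at -0.30 ± 0.12 and CKS2, which helps cyclin-dependent kinases, at -0.41 ± 0.12. NUSAP1 and CCNA2 stood at 0.32 ± 0.08 and 0.30 ± 0.09. Values of both signs thus occurred within the list.

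Iron-handling genes leaned to higher values without a call. Of 13 measured, 11 were positive and 6 had all MTF1 siRNA arrays above all controls, against 11.6% of all features, with a median of 0.15. At an unadjusted p under 0.05 there were 2 of the 13, against 14.7% of all features. These were the iron carrier transferrin, TF, at 0.35 ± 0.10 (adjusted p = 0.163) and the iron exporter ferroportin, SLC40A1, at 0.33 ± 0.10 (adjusted p = 0.180). The transferrin receptor TFRC was at 0.20 ± 0.10, the reductases STEAP3 and CYBRD1 at 0.31 ± 0.14 and 0.32 ± 0.18, and the light ferritin chain FTL at -0.06 ± 0.11. At high zinc the list's median was -0.08, and 2 of the 13 genes kept their sign.

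Secreted plasma proteins, which Caco-2 cells are known to make, included some values close to the threshold. Of 19 measured none was called, 13 were positive and 4 had an unadjusted p under 0.05, against 14.7% of all features. The protease inhibitor SERPINA3 was at 0.58 ± 0.12 (adjusted p = 0.0924). The fibrinogen chain FGB was at 0.57 ± 0.10 (adjusted p = 0.0648), FGA at 0.28 ± 0.11 and FGG at 0.24 ± 0.13. At high zinc these 4 genes stood at -0.07, -0.20, 0.03 and -0.40.

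Genes that describe the state of the epithelium were mixed. Of 14 measured enterocyte genes 5 were positive, and none was called, with 4 at an unadjusted p under 0.05, against 14.7% of all features. The brush border genes CDHR5 and MEP1A were at -0.50 ± 0.17 and -0.37 ± 0.12, whereas APOA1, an apolipoprotein, was at 0.24 ± 0.08. CDHR5 was detected on no more than 1 of 3 MTF1 siRNA arrays, so its difference has a side near background. Goblet and secretory genes had the lowest median of the other lists, -0.26 over 8 genes (-0.08 without control replicate 1), with the secretory protein AGR2 at -0.26 ± 0.11. Of the 12 measured mesenchymal genes 11 were negative, led by COL1A1 at -0.43 ± 0.13, and none was called. RNA interference genes, 11 measured, had a median of 0.08 and no call. In all, 646 genes of the 43 lists were measured, and MCM2 and CCNB2 were the only list members called.

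**Figure D4:**
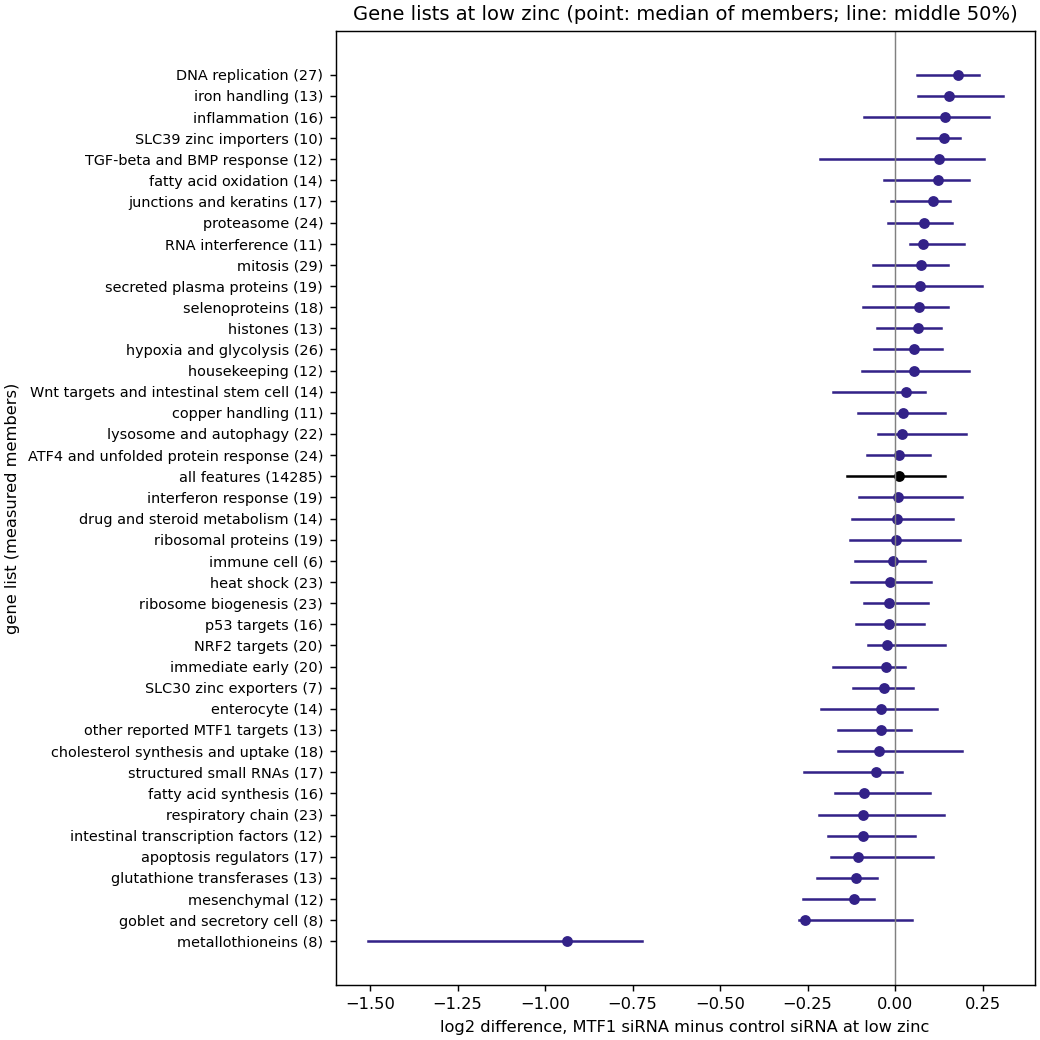
Median log2 difference between MTF1 and control siRNA at low zinc (points) and the middle 50% of members (lines) for each list of at least 5 measured genes, with all 14285 features in black. Metallothioneins lie at -0.94, and the other lists lie between -0.26 and 0.18.

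At high zinc the same siRNAs gave 271 calls (1.9%), 175 lower (1.23%) and 96 higher (0.672%). The high-zinc arrays are separate samples, but the fit shares 1 estimate of the spread with the low-zinc arrays. Of the 17 low-zinc calls, 12 had the same direction at high zinc and 8 were called in it, which is 47.1% of the low-zinc calls and 2.95% of the high-zinc ones. Over all features, 51.9% had the same direction. The named genes called at both were SMAD5, FOXN3, UBE2Q1 and CCNB2, which fell, and KCTD20 and STMN3, which rose. SMAD5 stood at -0.70 ± 0.09 at low and -0.82 ± 0.09 at high zinc, and CCNB2 at -0.55 ± 0.09 and -0.53 ± 0.09. When the high-zinc effect was taken from its own 6 arrays alone, 2 of the 17 were called there, among 38 calls in all.

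MTF1 was 0.98 ± 0.22 lower at high zinc (log2 difference -0.98, adjusted p = 0.0483), and the difference from its low-zinc value was 0.26 ± 0.31. None of the 17 low-zinc calls passed the test of a difference between the zinc levels. That test called 3 of 14285 features (0.021%), namely MT1B, MT1M and EMP3. MT1B and MT1M were near background with either siRNA at low zinc, which leaves their low-zinc effect without a measured size. At high zinc their control levels were 10.68 and 11.41, and their siRNA effects were -2.87 ± 0.12 and -2.32 ± 0.16. For the abundant metallothioneins the log2 effect at high zinc was -0.34 ± 0.44 for MT1X, -0.25 ± 0.26 for MT2A, -0.50 ± 0.25 for MT1E and -1.33 ± 0.40 for MT1G, against -1.54, -0.78, -0.79 and -1.80 at low zinc. MT1F stood at -0.87 ± 0.21 against -1.08 and MT1H at -1.55 ± 0.28 against -1.49. The tests of these 6 differences between zinc levels gave adjusted p-values from 0.366 to 0.959. SLC30A1 and SLC30A2 were called lower at high zinc, at -0.57 ± 0.10 and -1.44 ± 0.21, but the differences from low zinc did not pass (adjusted p of 0.175 and 0.168).

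**Figure D5:**
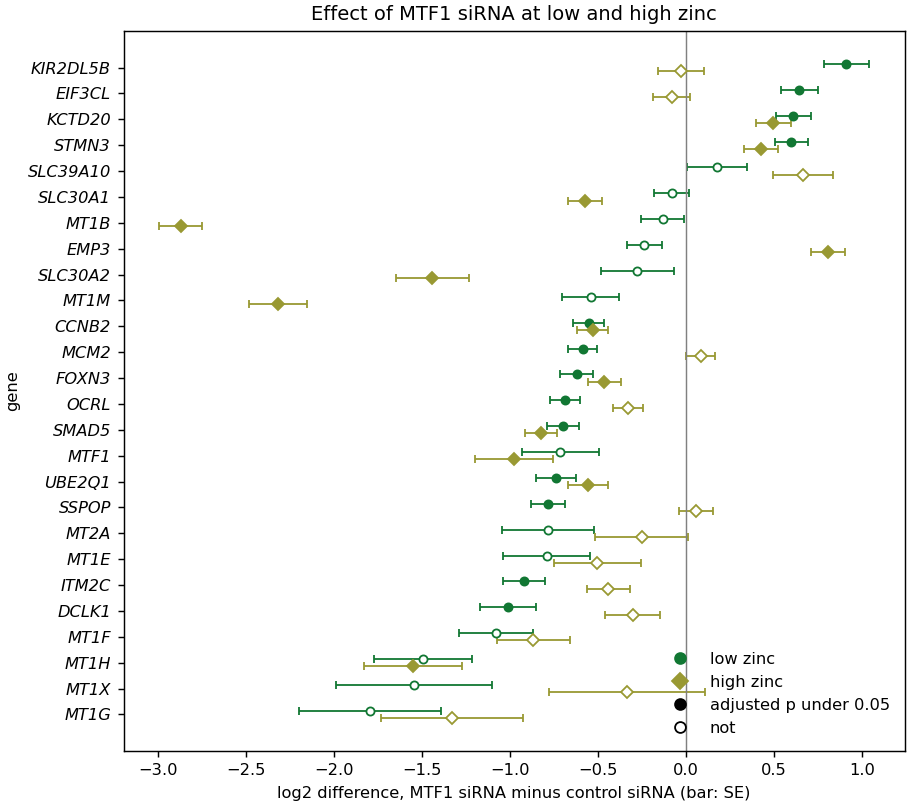
Log2 difference between MTF1 and control siRNA (horizontal axis, bars SE, 3 arrays a group) at low zinc (circles) and high zinc (diamonds) for the named genes, filled where the adjusted p was under 0.05. MT1B and MT1M are near background at low zinc, so of their points those of high zinc (-2.87 and -2.32) are measured sizes, whereas SMAD5 and CCNB2 have near-equal values at both.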

How the data were processed

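Total RNA was profiled on 12 Illumina HumanHT-12 V4 arrays, 3 for each pair of siRNA and zinc concentration. Groups come from the sample titles. The deposited table held bead intensities on a linear scale, not normalized, and a detection p-value for each, both per the file headers. A further deposited table held the authors' log2 values, whose array medians were all 7.03; the sources used here do not state how they were normalized. Intensities were background-corrected, given an offset of 16, quantile normalized and brought to log2 (neqc, limma 3.58.1, R 4.3.3). The platform annotation gives 30113 of the 47323 probes 1 gene symbol, 8 several and 17202 none. Probes with a detection p-value under 0.05 on every array of at least 1 group entered (17413 probes), and the brightest probe stood for a gene. This left 14285 features, 10584 of them named genes.

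A linear model with 4 group means was fitted to the 12 arrays (lmFit, eBayes), and two-sided p-values were adjusted over all features (Benjamini-Hochberg, 0.05). Values are mean log2 differences ± SE with 3 arrays a group. The SE is limma's moderated one, from a spread shared by all 12 arrays, so it is equal at low and high zinc. It can differ from the spread of the arrays compared. MT1X had SDs of 0.48 (control) and 1.19 (MTF1 siRNA) at low zinc. At high zinc they were 0.16 and 0.09, with an SE of 0.44 at both. Where a group was above background on none of its arrays, the fold is a bound, with the dim side set on each array to its own signal or the lowest detected signal, whichever is higher. The number of arrays limits the precision. The test was tried on simulated data with independent normal noise. It recovered 23 of 67 planted 1.5-fold changes, 59 of 67 2-fold ones and 66 of 66 4-fold ones, and called 4 unchanged features. A gene without a call may thus still differ by 1.5-fold.

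Named were up to 15 called genes in each direction whose arrays did not overlap, MTF1, ZNF658, the metallothioneins, SLC30A1, SLC30A2 and SLC39A10, list members called, and up to 10 genes whose effect differed between zinc levels. Other genes were chosen after their values were seen. The members and the 43 lists were chosen with earlier results of these data known, and lists are described without a test. Alternatives were no background correction, median centring, the authors' values, other filters, every probe, the replicate number as a block, fewer arrays in the fit, robust eBayes with a trend, weighted arrays, and leaving out arrays one by one. Promoter sequences are RefSeq's.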

Additional observations from a re-analysis of the deposited data

Results flagged for a closer look

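A test of the difference between the low-zinc and high-zinc effects of MTF1 siRNA, limma's contrast with adjustment over 14285 features, passed for 3 genes. For 2 of them, MT1B and MT1M, the low-zinc levels were at background, so the value does not show that the siRNA effect itself differed. For the metallothionein MT1B the low-zinc effect minus the high-zinc effect was 2.74 ± 0.17 (adjusted p = 4.22e-05). Its low-zinc arrays read 4.83, 4.95 and 4.77 in controls and 4.61, 4.77 and 4.78 after MTF1 siRNA, none of them above background, and its high-zinc means were 10.68 and 7.81. For MT1M the difference was 1.78 ± 0.23 (adjusted p = 0.0381), with a control level of 5.09 at low and 11.41 at high zinc. MT1M was detected on 1 of 3 control arrays and 0 of 3 MTF1 siRNA arrays at low zinc.

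EMP3, an epithelial membrane protein, had opposite signs. At low zinc it read 7.91, 7.86 and 7.86 in controls and 7.64, 7.54 and 7.74 after MTF1 siRNA, a difference of -0.24 ± 0.10 (adjusted p = 0.294). At high zinc it read 8.49, 8.35 and 8.37 against 9.26, 9.32 and 9.05, a rise of 0.81 ± 0.10 (adjusted p = 0.00664). The arrays did not overlap at either zinc level. The difference between the effects was -1.04 ± 0.14 (adjusted p = 0.0381).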

How the results depend on the processing

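The count of calls at low zinc, 17 in the reported fit, was 159 without background correction (56 higher, 103 lower), 152 with the authors' log2 values and 143 with a trend and robust eBayes. It was 28 with a detection p under 0.01, 23 with detection on all arrays, 18 with every probe or array weights, 7 with median centring (3 higher, 4 lower), 3 with the replicate number as a block, 2 with no filter on dim probes and 0 with the low-zinc arrays alone, where 1955 features had an unadjusted p under 0.05. Leaving out 1 array gave 0 to 19 calls. The metallothioneins called lower, 0 in the reported fit, were 4, 4 and 2 without background correction, with the authors' values and with the trend, and 0 to 5 with 1 array left out. The features whose effect differed between zinc levels, 3 in the reported fit, were 146, 117 and 101 in those 3 settings, 1 with median centring, no filter, detection on all arrays or the block, and 1 to 8 with 1 array left out. Of the 17 features called at low zinc in the reported fit, 8 were called in the same direction at high zinc. These 17 were followed in the other settings, whether or not called at low zinc there. The number called at high zinc was 10 without background correction and with the authors' values. It was 9 with the trend and with detection on all arrays, 5 with median centring, 2 with no filter and 4 with the block. It was 2 with the high-zinc effect from its own arrays (chosen after seeing the data, as was the metallothionein count) and 2 to 7 with 1 array left out. The cause of these shifts was not tested.

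No called gene changed sign in any setting. Of 295 gene and setting pairs, 131 kept the call, and none of the 13 named genes kept it throughout; ITM2C kept it in 16 of 23 settings, and SMAD5 and OCRL in 15. SLC30A1 changed sign with median centring, to 0.0042 (adjusted p = 0.991). MTF1 passed in no setting. Arrays that share a replicate number showed little shared deviation at low zinc (correlations of -0.04, 0.07 and 0.04). With 3 arrays a group this cannot exclude that the numbers pair the samples, and the labels do not say. Probes near background, among them KIR2DL5B, SSPOP, MT1M and MT1B, carry only bounds or none, and the 3 arrays a group limit the precision of every value.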

Other observations

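Other gene groups lay close to the spread of all features at low zinc and held no call. Proteasome genes had a median log2 difference of 0.08 over 24 measured genes, 17 of them positive, and inflammation genes one of 0.14 over 16. Glutathione transferases, which detoxify reactive compounds, stood at -0.11 over 13 genes, 10 of them negative. Respiratory chain genes stood at -0.09 over 23. Heat shock genes, 23 measured, stood at -0.02, NRF2 targets, 20 measured, at -0.02, and genes of the ATF4 and unfolded protein response, 24 measured, at 0.01.

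Some large differences did not pass the threshold. TAF1, a subunit of the general transcription factor TFIID, was 1.12 ± 0.20 higher on the log2 scale (adjusted p = 0.0706). LRIG3, a membrane regulator of growth factor receptors, was 1.03 ± 0.22 higher (adjusted p = 0.0946). CD164, a sialomucin, differed by -1.06 ± 0.30 (adjusted p = 0.163). These 3 genes were picked after their values were seen.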
